A study of Mus musculus with 10 samples.

Results

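The transcripts described here are those of p53 and of genes that p53 acts on or that hold cells at cell-cycle checkpoints, in mouse collecting duct cells with and without the kinase CAMK2D. The rule for the 10 genes is their names, with no threshold on a measured value, although earlier results of these data were known when they were chosen: Trp53, Mdm2, Cdkn1a, Cdkn1b, Cdkn2a, Ccng1, Bax, Bbc3, Rb1 and Gadd45a. They are 10 of the 55414 genes in the table, and all 10 were among the 20000 most abundant genes that were tested.

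mpkCCD cells are an immortalized mouse line of kidney collecting duct cells (C57BL/6, mpkCCDc11, secondary clone 38). All cells were grown on membrane supports with the vasopressin analog dDAVP at 0.1 nM until day 7. By the study's methods, complete medium was replaced for the last part of the culture by one without serum and growth factors. Both media held dexamethasone. The Camk2d-intact group had 5 samples from 3 cell lines: the parental line, which was never transfected, and 2 samples from each of 2 single-cell clones that went through the CRISPR-Cas9 procedure but kept CAMK2D. The Camk2d KO group had 5 samples, each from a different single-cell clone; by the study's supplement, an exon 8 guide gave KO 1 and KO 2, and an exon 9 guide gave the other 3 clones. Each clone is 1 cell line, so what a clone inherited from its founder cell cannot be told apart from the loss of Camk2d within it. The labels do not say whether the paired samples of an intact clone were separate cultures, so p-values from those pairs may measure technical spread only. All groups share the immortalization of the mpkCCD line with the SV40 large T antigen, a viral protein known to bind p53 and the retinoblastoma protein; its transcript was not analysed here.

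p53, the product of Trp53, is a transcription factor that is made steadily in most cells and held low by MDM2, a ubiquitin ligase that sends it for degradation. When DNA is damaged or cells are otherwise stressed, p53 protein accumulates and drives genes that stop the cell cycle, such as Cdkn1a (p21), and genes that favor apoptosis, such as Bax and Bbc3 (PUMA), as well as Mdm2 itself. Cyclin-dependent kinase inhibitors and the retinoblastoma protein act together further down, because RB holds back E2F transcription factors until the kinases phosphorylate it. Because p53 is controlled mainly as a protein, the level of its transcript and the levels of its targets are separate measurements.

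Values are TPM, read shares scaled by transcript length and by the library's total, so levels may be set side by side between genes. They do not show how deeply a library was sequenced, and counting error is therefore unknown. Camk2d was 122.68 to 141.28 TPM in the intact samples and 19.76 to 29.76 TPM in the KO samples, so every KO library was below every intact one. The cell type markers matched the label in part. Aqp2, the water channel of principal cells, was 3773.21 to 5502.48 TPM in intact and 1281.18 to 3788.60 TPM in KO samples. The vasopressin receptor Avpr2 (114.19 to 264.44 TPM over all samples), Gata3 (240.44 to 280.24), Scnn1a (141.20 to 260.38), Hsd11b2 (11.52 to 114.93) and Scnn1g (13.43 to 24.60) were also present. Of the other principal cell markers, Aqp4, Aqp3, Scnn1b and Elf5 reached at most 8.54, 3.34, 0.39 and 0.14 TPM. The summed TPM of 5 intercalated cell markers was at most 0.36 and of 5 fibroblast markers at most 0.49. Of 4 proximal tubule markers, Lrp2 was 6.51 to 14.91 TPM and the rest at most 0.13, and of the leukocyte markers, Csf1r was 8.88 to 25.73 TPM and Ptprc at most 0.62. Both Lrp2 and Csf1r were highest in KO 1 and lowest in KO 2. Slc34a1 was listed at 0 in all samples. Over genes, pairs of libraries that include KO 1 or KO 2 correlated at r = 0.980 to 0.986 and all other pairs at 0.986 to 0.991, so KO 1 and KO 2 stood apart, also from each other (0.980). The main results that rest on these libraries are given with and without them.

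The stretches before the start sites are shown for 4 of the genes, because Cdkn1a, Ccng1 and Mdm2 moved together from line to line (below) and Cdkn2a held the one E2F motif found. The sequences are RefSeq promoter sequences on GRCm38.p6, which held 13 windows of 300 bases for 9 of the 10 genes. Capitals mark a match to CATGNNNNNNCATG, the core letters of a p53 site, in Cdkn1a and to the E2F motif TTTCCCGC in Cdkn2a. No match is marked in the other windows.
Cdkn1a, upstream of 1 of its 2 annotated starts, chr17:29090891-29090978 (plus strand): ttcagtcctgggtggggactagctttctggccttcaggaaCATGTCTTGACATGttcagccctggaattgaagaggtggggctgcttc
Ccng1, chr11:40755287-40755386 (minus strand): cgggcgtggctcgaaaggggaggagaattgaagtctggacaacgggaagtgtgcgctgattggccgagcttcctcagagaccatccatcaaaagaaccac
Mdm2, chr10:117710759-117710858 (minus strand): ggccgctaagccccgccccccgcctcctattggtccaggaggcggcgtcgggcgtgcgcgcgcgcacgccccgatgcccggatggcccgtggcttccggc
Cdkn2a, upstream of 1 of its 2 annotated starts, chr4:89294671-89294758 (minus strand): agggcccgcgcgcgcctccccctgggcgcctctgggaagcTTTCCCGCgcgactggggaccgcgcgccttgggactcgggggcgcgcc

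Both strands of all 32851 promoters were searched. The letters CATGNNNNNNCATG were in 0.712% of them and in 1 of the 13 windows of these genes, where the match begins 48 bases before the Cdkn1a start. TTTCCCGC was in 1.07% of promoters and in 1 of the 13 windows, that of Cdkn2a, and TTTGGCGC, another E2F motif, was in 0.514% and in 0 of the 13. The full p53 response element, 2 adjacent half-sites without a spacer, was in 0.00913% of promoters and in 0 of the 13 windows. These matches describe letters in short windows only, and p53 sites are also known in introns, as in Mdm2.

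**Figure D1:**
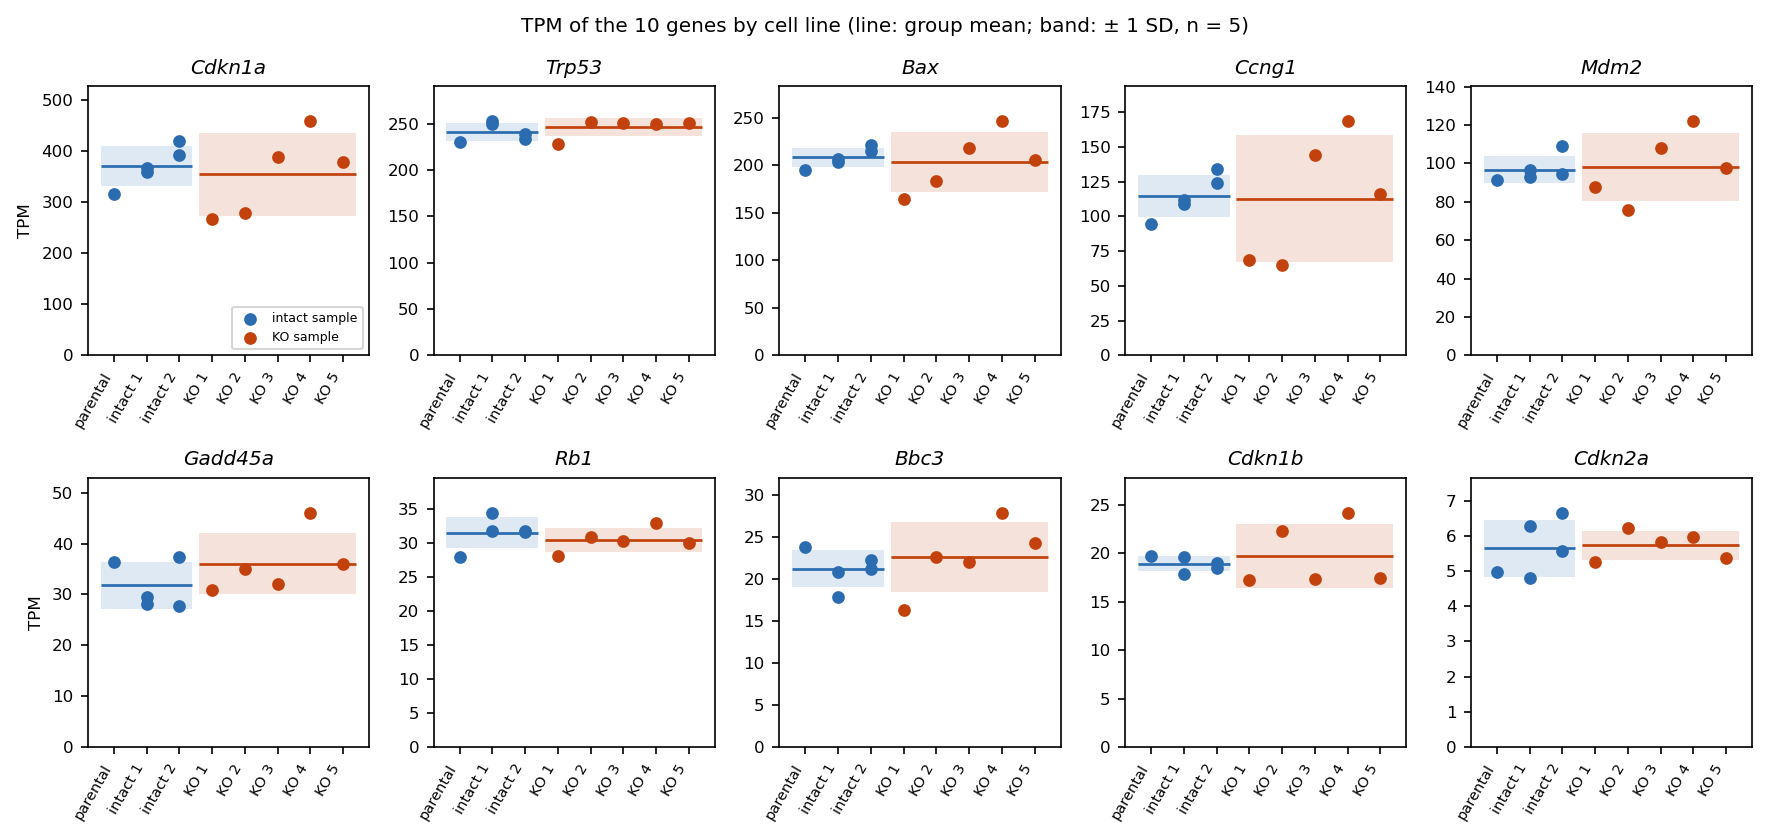
TPM (vertical axes, starting at 0) of the 10 genes in the 8 cell lines, ordered by mean TPM. Points are samples, blue for Camk2d-intact and orange for Camk2d KO, lines are group means and bands ± 1 SD with n = 5. Trp53 stays between 228.59 and 252.80 TPM, while Ccng1 runs from 65.36 TPM in KO 2 to 168.36 TPM in KO 4.

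By mean TPM over the 10 samples, Cdkn1a was the most abundant of these genes at 363 TPM, followed by Trp53 (244), Bax (206), Ccng1 (114), Mdm2 (97.6), Gadd45a (33.9), Rb1 (31.0), Bbc3 (21.9), Cdkn1b (19.3) and Cdkn2a (5.69). The lowest Cdkn1a sample, at 267.42 TPM, was above the highest Trp53 sample, at 252.80. In this order, the samples of Trp53 and Bax, Bax and Ccng1, Ccng1 and Mdm2, Gadd45a and Rb1, and Bbc3 and Cdkn1b overlapped. Rb1 and Bbc3 came close without overlap (at least 27.98 against at most 27.88 TPM). Mdm2 did not overlap with Gadd45a (at least 75.90 against at most 46.10 TPM), and Cdkn1b did not overlap with Cdkn2a (at least 17.27 against at most 6.66 TPM).

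To ask whether loss of Camk2d moved these transcripts, limma was run on log2(TPM + 1) of 20000 genes, with 5 KO against 5 intact samples. None of the 10 genes passed the test in either direction. The count past an adjusted p of 0.05 was 0 of 10, and 0 of 10 had an unadjusted p under 0.05. Over all genes tested, 0.005% were past the adjusted threshold (1 gene, Camk2d) and 6.99% were under the unadjusted one. The KO and intact samples overlapped for all 10 genes, where 1.64% of all genes had no overlap. The log2 ratio was above 0 for 6 genes and below 0 for 4, with a median of 0.01 beside 0.02 over all genes tested. This limma fit and the permutation tests below counted the paired samples of an intact clone as independent. The estimated correlation within a cell line was 0.603, so the intervals may be too narrow and the p-values too small. Each n = 5 of the intact group counts samples, not cell lines. With 1 value per cell line, or with the line as a random effect, limma also called 1 gene, Camk2d.

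The transcript of p53 itself, Trp53 (ENSMUSG00000059552, chr11:69580359-69591873), changed little from line to line; positions here are those of the gene in GENCODE M21 on GRCm38. It read 230.55 TPM in the parental line, 249.96 and 252.80 in intact clone 1, 239.07 and 234.01 in intact clone 2, and 228.59, 251.94, 250.58, 250.20 and 250.85 in KO 1 to KO 5. Apart from KO 1, the KO clones lay between 250.20 and 251.94 TPM, inside the intact range. The mean was 241 ± 9.76 TPM (SD, n = 5) in intact and 246 ± 9.99 TPM (SD, n = 5) in KO samples, a log2 ratio of 0.03 with a 95% interval of -0.06 to 0.13 (adjusted p = 0.896 by limma; exact permutation test, two-sided here and below, p = 0.484). The levels of Trp53 in the highest and the lowest of the 8 cell lines differed by 1.10 times, and 98.2% of the 13047 genes with a mean of at least 1 TPM had a ratio as large or larger. Of the 50-base windows of its transcripts, 96.1% occur in no other gene, and its pseudogene Trp53-ps is among the genes that share the rest.

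Mdm2 (ENSMUSG00000020184, chr10:117688875-117710758), the ligase that limits p53, was 91.26 TPM in the parental line, 96.74 and 92.75 in intact clone 1, 108.87 and 94.58 in intact clone 2, and 87.97, 75.90, 108.04, 122.03 and 97.66 in KO 1 to KO 5. The lowest 2 samples were KO 1 and KO 2, and KO 4 was the highest. The group means were 96.8 ± 7.03 and 98.3 ± 17.8 TPM (SD, n = 5 each). The log2 ratio was 0.0057 with a 95% interval of -0.24 to 0.26 (limma adjusted p = 0.998; exact permutation p = 0.960). Without KO 1 and KO 2 it was 0.17 (adjusted p = 0.629).

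Cdkn1a (ENSMUSG00000023067, chr17:29090976-29100727) encodes p21, the cyclin-dependent kinase inhibitor through which p53 arrests cells in G1. Its level was 316.17 TPM in the parental line, 359.61 and 367.32 in intact clone 1, 419.62 and 392.55 in intact clone 2, and 267.42, 278.41, 389.30, 458.93 and 379.10 in KO 1 to KO 5. All intact samples were above KO 1 and KO 2 and below KO 4, so the KO clones bracketed the intact range. The means, 371 ± 38.7 TPM in intact and 355 ± 80.8 TPM in KO samples (SD, n = 5 each), differed by a log2 ratio of -0.09 with a 95% interval of -0.41 to 0.23 (limma adjusted p = 0.912; exact permutation p = 0.595). Without KO 1 and KO 2 the log2 ratio turned to 0.14 (adjusted p = 0.736). Of its windows, 91.5% occur in no other gene, and the rest are shared with 584 genes, among them the overlapping AC167363.2 on the opposite strand.

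Ccng1 (ENSMUSG00000020326, chr11:40748552-40755311) encodes cyclin G1, a p53 target that recruits a phosphatase to MDM2, and it varied most among the 10. It was 94.41 TPM in the parental line, 108.79 and 112.00 in intact clone 1, 133.63 and 123.75 in intact clone 2, and 68.92, 65.36, 144.27, 168.36 and 116.30 in KO 1 to KO 5. KO 1 and KO 2 were below every intact sample, KO 3 and KO 4 were above every one, and KO 5 was among them. The group means were nearly equal, 115 ± 14.9 and 113 ± 45.5 TPM (SD, n = 5 each). They differed on the log2 scale by -0.11, with a 95% interval of -0.67 to 0.44 (limma adjusted p = 0.941; exact permutation p = 0.690). Without KO 1 and KO 2 it was 0.31 (adjusted p = 0.614).

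Bax (ENSMUSG00000003873, chr7:45461697-45466898) and Bbc3 (ENSMUSG00000002083, chr7:16308393-16318205) encode pro-apoptotic members of the BCL2 family. Bax was 195.66 TPM in the parental line, 207.23 and 203.99 in intact clone 1, 221.86 and 214.92 in intact clone 2, and 164.80, 183.61, 218.46, 246.60 and 205.28 in KO 1 to KO 5. As for Cdkn1a, KO 1 and KO 2 were the lowest 2 samples and KO 4 the highest. Its log2 ratio was -0.05 with a 95% interval of -0.26 to 0.16 (limma adjusted p = 0.932), and 0.09 without KO 1 and KO 2 (adjusted p = 0.729). Bbc3 was 23.75 TPM in the parental line, 20.86 and 17.80 in intact clone 1, 22.30 and 21.18 in intact clone 2, and 16.33, 22.56, 21.99, 27.88 and 24.31 in KO 1 to KO 5. Only KO 1 was below, and only KO 4 and KO 5 above, the intact samples. Its log2 ratio was 0.08 with a 95% interval of -0.20 to 0.36 (limma adjusted p = 0.912), and 0.21 without KO 1 and KO 2 (adjusted p = 0.632). The Bax value carries a limit, because 91.5% of its windows are its own and the rest are shared with the overlapping gene Gm45808.

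Gadd45a (ENSMUSG00000036390, chr6:67035096-67037457), a growth arrest and DNA damage gene, had the largest log2 ratio of the 10, 0.17 with a 95% interval of -0.10 to 0.44 (limma adjusted p = 0.805; exact permutation p = 0.230). Without KO 4 it was 0.08. It was 36.35 TPM in the parental line, 28.07 and 29.43 in intact clone 1, 37.39 and 27.81 in intact clone 2, and 30.95, 34.96, 32.04, 46.10 and 36.06 in KO 1 to KO 5. KO 4 alone was above the intact range, and the 2 samples of intact clone 2 differed by 1.34 times, beside 1.60 times between the lowest and the highest line. Of its windows, 84.4% occur in no other gene, and the rest are shared with E230016M11Rik on the opposite strand; the library kit does not keep strand.

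Cdkn1b (ENSMUSG00000003031, chr6:134920401-134925513) encodes the kinase inhibitor p27, which is not a standard p53 target. It was 19.75 TPM in the parental line, 17.86 and 19.60 in intact clone 1, 19.03 and 18.50 in intact clone 2, and 17.27, 22.27, 17.39, 24.21 and 17.45 in KO 1 to KO 5. KO 2 and KO 4 were above the intact samples and KO 1, KO 3 and KO 5 below them, with group means of 18.9 ± 0.784 and 19.7 ± 3.29 TPM (SD, n = 5 each; log2 ratio 0.04, 95% interval -0.18 to 0.26, limma adjusted p = 0.944).

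Cdkn2a (ENSMUSG00000044303, chr4:89274471-89294653) encodes 2 unrelated proteins, the kinase inhibitor p16 and the MDM2 antagonist p19ARF, and its TPM sum both. It was low, at 4.96 TPM in the parental line, 4.80 and 6.28 in intact clone 1, 6.66 and 5.57 in intact clone 2, and 5.25, 6.23, 5.84, 5.96 and 5.37 in KO 1 to KO 5. All KO samples lay within the intact range (log2 ratio 0.02, 95% interval -0.21 to 0.25, limma adjusted p = 0.978).

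Rb1 (ENSMUSG00000022105, chr14:73183673-73325822), which encodes the retinoblastoma protein, was likewise close in all lines, at 27.98 TPM in the parental line, 31.69 and 34.46 in intact clone 1, 31.64 and 31.70 in intact clone 2, and 28.11, 30.92, 30.29, 32.92 and 29.97 in KO 1 to KO 5. All 5 KO values were inside the intact range (log2 ratio -0.05, 95% interval -0.18 to 0.09, limma adjusted p = 0.889), and 88.0% of its windows occur in no other gene, the rest being shared with Rcbtb2 and Lpar6 on the opposite strand.

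**Figure D2:**
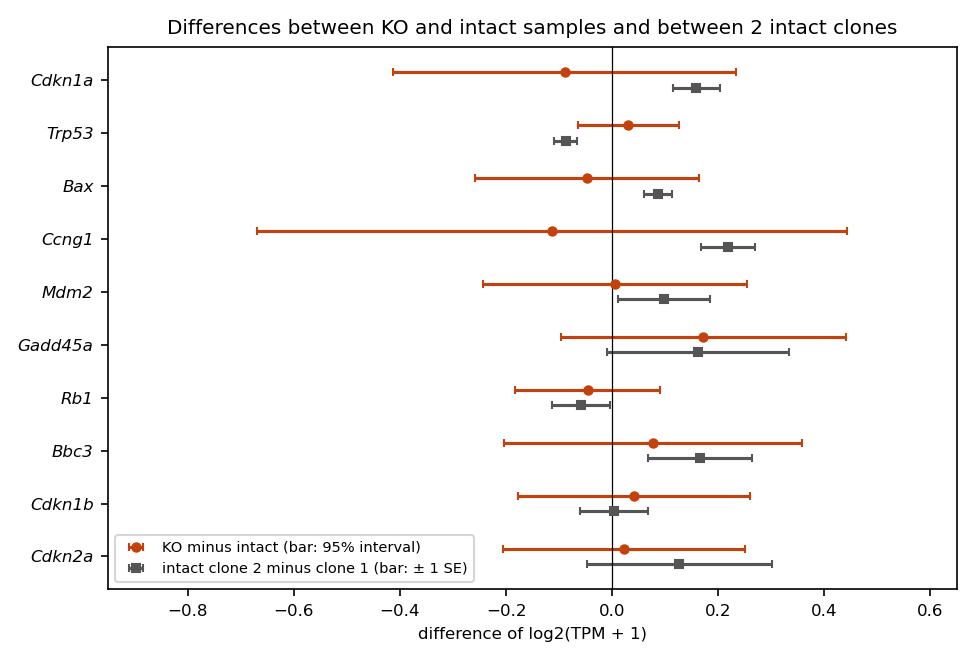
Differences of mean log2(TPM + 1) (horizontal axis) for the 10 genes. Orange points are KO minus intact with 95% intervals and grey squares intact clone 2 minus intact clone 1 with ± 1 SE. Every KO interval spans 0, and the widest is that of Ccng1, from -0.67 to 0.44.

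The coefficient of variation was compared between the 5 KO clones and the intact samples for each of the 10 genes, and for Trp53 the values were nearly equal. It was 40.4% in KO against 13.1% in intact samples for Ccng1, 22.8% against 10.4% for Cdkn1a, 18.1% against 7.26% for Mdm2, 15.5% against 4.83% for Bax, 16.7% against 4.14% for Cdkn1b, 18.6% against 10.4% for Bbc3 and 16.7% against 14.7% for Gadd45a. For Trp53 it was 4.06% against 4.04%, for Rb1 5.70% against 7.32% and for Cdkn2a 7.17% against 14.3%. Among KO 3 to KO 5 it was 0.13% for Trp53, whose spread among KO clones came from KO 1, 18.2% for Ccng1, 10.6% for Cdkn1a, 11.2% for Mdm2 and 9.45% for Bax, so for Cdkn1a it was then close to the intact value. It was also lower than with all 5 clones for Bbc3, and higher for Cdkn1b (19.9%) and Gadd45a (19.0%). The KO samples are 5 cell lines and the intact samples only 3, so the number of lines and the loss of Camk2d cannot be told apart here. This difference in spread was not tested, and it was not set beside that of all genes.

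The 2 intact clones differ from each other without any loss of Camk2d, and they were compared in a fit with 1 level per cell line. Both samples of clone 2 were above both of clone 1 for Cdkn1a, Ccng1, Bax and Bbc3, which is 4 of 10 genes beside 19.2% of all genes tested, and below for Trp53, 1 of 10 beside 25.0%. The log2 difference, clone 2 minus clone 1, was 0.22 ± 0.05 (SE) for Ccng1 (limma adjusted p = 0.209), 0.16 ± 0.04 for Cdkn1a (adjusted p = 0.252), 0.09 ± 0.03 for Bax (adjusted p = 0.281) and -0.09 ± 0.02 for Trp53 (adjusted p = 0.225). None of the 10 passed the adjusted threshold, which 0.025% of all genes did (5 genes). An unadjusted p under 0.05 was found for these 4 genes, beside 17.1% of all genes. The residual spread comes from 2 pairs of samples only.

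When all 8 cell lines were compared by limma's moderated F test, Ccng1 passed (F = 92.8, adjusted p = 0.0470), and 3.60% of all genes did. The unadjusted p was under 0.05 for Ccng1, Bax, Cdkn1a and Trp53 (adjusted p of 0.0672, 0.0713 and 0.171 for the last 3), 4 of 10 beside 28.7% of all genes. The call of Ccng1 was lost in each fit that left out 1 of the 4 samples of the intact clones (adjusted p from 0.146 to 0.201), in which only 1 pair gave the residual spread, and without limma's intensity trend (adjusted p = 0.0689). Between the lowest line (KO 2, 65.4 TPM) and the highest (KO 4, 168 TPM), Ccng1 differed 2.58 times. Of the genes with a mean of at least 1 TPM, 12.1% had a ratio that large, and the median was 1.42.

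Cdkn1a, Ccng1, Bax and Mdm2 were ordered alike over the lines, but not identically: the lowest line was KO 1 for Cdkn1a and Bax and KO 2 for Ccng1 and Mdm2. KO 1 and KO 2 were below the other 8 samples in these 4 genes, 4 of 10 beside 3.51% of all genes tested, and in none of the 10 were they both above, beside 6.10% of all genes. The mean of KO 1 and KO 2 and the mean of KO 3 to KO 5 were 67.1 and 143 TPM for Ccng1, 273 and 409 TPM for Cdkn1a, 81.9 and 109 TPM for Mdm2 and 174 and 223 TPM for Bax. These pairs of clones also differ by guide, but the guide is not in the sample labels, and the difference was not tested. KO 4 was the highest of all samples in 7 of the 10 genes (those 4 and Bbc3, Gadd45a and Cdkn1b), beside 11.9% of all genes. After rescaling each library by median ratios, both counts stayed at 4 and 7. The summed TPM of 10 principal cell markers was also lowest in KO 1 and KO 2 (2010 and 2270, against 4450 to 6220 in intact samples and 3600 in KO 4). Most of that sum is Aqp2, and without it the 9 other markers summed to 732 in KO 1 and 649 in KO 2, against 676 to 715 in intact samples. Single markers went different ways, with Scnn1a highest in KO 1 (260.38 TPM) and Hsd11b2 highest in KO 2 (114.93 TPM). The part of these markers, and of Csf1r and Lrp2, in the result was not tested.

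**Figure D3:**
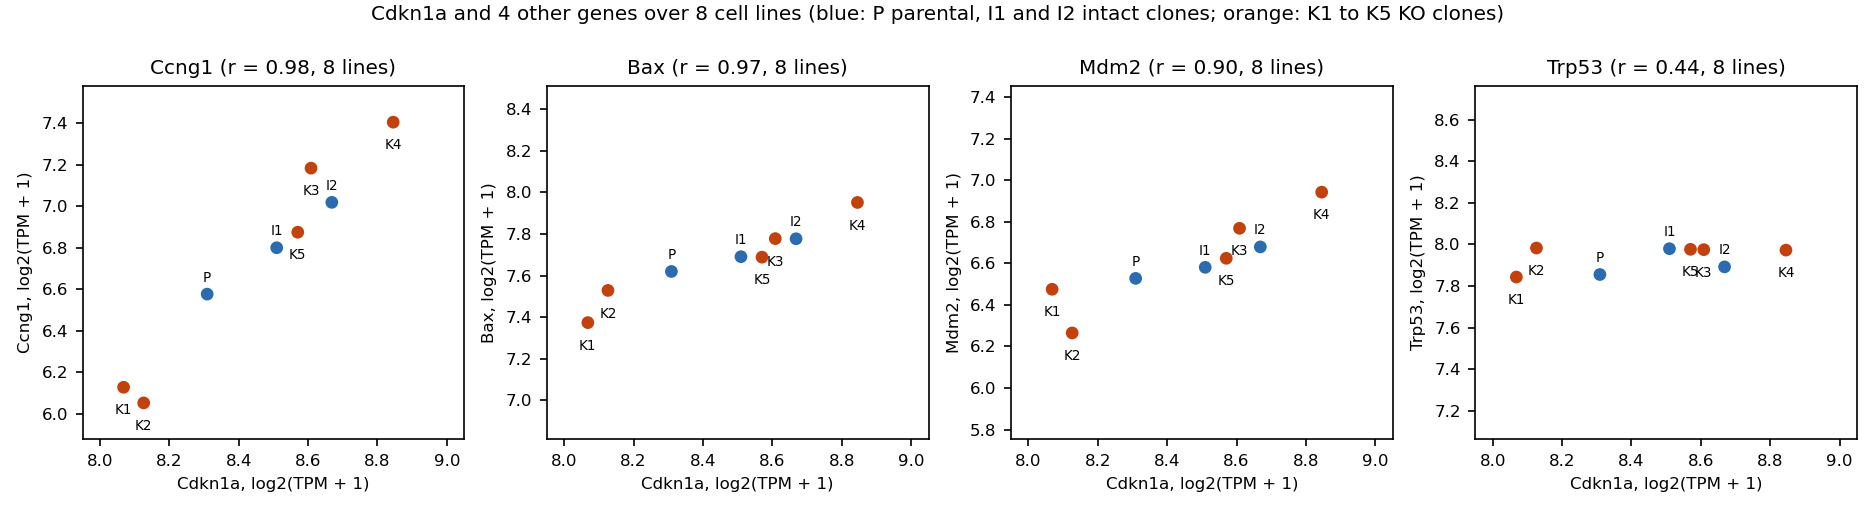
Level of Ccng1, Bax, Mdm2 and Trp53 (vertical axes) against Cdkn1a (horizontal axes) in the 8 cell lines, both as log2(TPM + 1), with the same span on each vertical axis. Points are lines, with the samples of an intact clone averaged. Ccng1 climbs with Cdkn1a from KO 1 and KO 2 to KO 4 (r = 0.98), while Trp53 stays level (r = 0.44).

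Over the 8 lines, r was 0.98 for Cdkn1a and Ccng1 (rho = 0.95, two-sided exact permutation p = 0.000223, adjusted p = 0.00251), 0.97 for Cdkn1a and Bax (rho = 0.95, exact p = 9.92e-05, adjusted p = 0.00223), 0.95 for Mdm2 and Ccng1 (rho = 1.0, exact p = 9.92e-05, adjusted p = 0.00223), 0.95 for Ccng1 and Bax (rho = 0.95, exact p = 0.000174, adjusted p = 0.00251) and 0.90 for Mdm2 and Cdkn1a (rho = 0.95, exact p = 0.00186, adjusted p = 0.0167). These were the 5 of 45 pairs past the adjusted threshold by Pearson's r, and 7 were past it by Spearman's rho, the added pairs being Mdm2 with Bax (r = 0.85) and Bbc3 with Gadd45a (r = 0.84). The share of all pairs of genes that would pass was not computed. Of the 9 genes beside Cdkn1a, 3 (33.3%) had an r of at least 0.8 with it, beside 1.61% of all genes with a mean of at least 1 TPM. Without KO 1 and KO 2 the shares were 44.4% and 2.84%. For Cdkn2a, r was 0.33 with Cdkn1a, 0.23 with Ccng1, 0.41 with Bax and 0.13 with Mdm2 over 8 lines, but 0.87, 0.84, 0.80 and 0.74 over the 6 lines without KO 1 and KO 2 (unadjusted exact p = 0.0208 and adjusted p = 0.117 for Cdkn1a). Without the 2 lines farthest from the median of the first gene named, r of the 5 pairs was 0.94, 0.95, 0.94, 0.96 and 0.86 in the same order. Those lines were KO 4 and KO 2 for Mdm2, and KO 1 and KO 2 for Cdkn1a and Ccng1. For the pairs without Mdm2 these values are therefore the same as the next ones. KO 1 and KO 2 lie apart from the other lines, and among the remaining 6 lines r was 0.94 for Cdkn1a and Ccng1, 0.95 for Cdkn1a and Bax, 0.98 for Mdm2 and Ccng1, 0.96 for Ccng1 and Bax and 0.91 for Mdm2 and Cdkn1a. With 6 lines, 0 of 45 pairs passed the adjusted exact permutation test and 10 had an unadjusted p under 0.05 (smallest possible p 0.00139). Without KO 4, 4 of the 45 pairs passed by Pearson's r and 1 by Spearman's rho, 33 instead of 45 pairs had an r above 0, and Mdm2 with Cdkn1a did not (r = 0.85, adjusted p = 0.0554 over 7 lines). That pair was also lost without the parental line (r = 0.90, adjusted p = 0.0518), where the other 4 passed. After rescaling by median ratios 6 pairs passed, with Mdm2 and Bax added (r = 0.87, adjusted p = 0.0404). No pair with Trp53 was among those that passed (for Trp53 and Cdkn1a, r = 0.44, rho = 0.05, exact p = 0.275, adjusted p = 0.495).

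In the whole transcriptome, the 3 genes whose pattern over the 8 lines was most like that of Cdkn1a were Inka2 (r = 0.98), Ccng1 (r = 0.98) and Trp53inp1 (r = 0.98), of 13046 genes with a mean of at least 1 TPM. For Trp53 they were Mtg1, R3hcc1 and Psmd6 (r = 0.96 each). For Cdkn2a they were Sf3b6 (r = 0.97), Sumo2 (r = 0.93) and Trim62 (r = 0.91). These correlations across 8 lines are a description, and the lines share the libraries in which both genes were read.

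**Figure D4:**
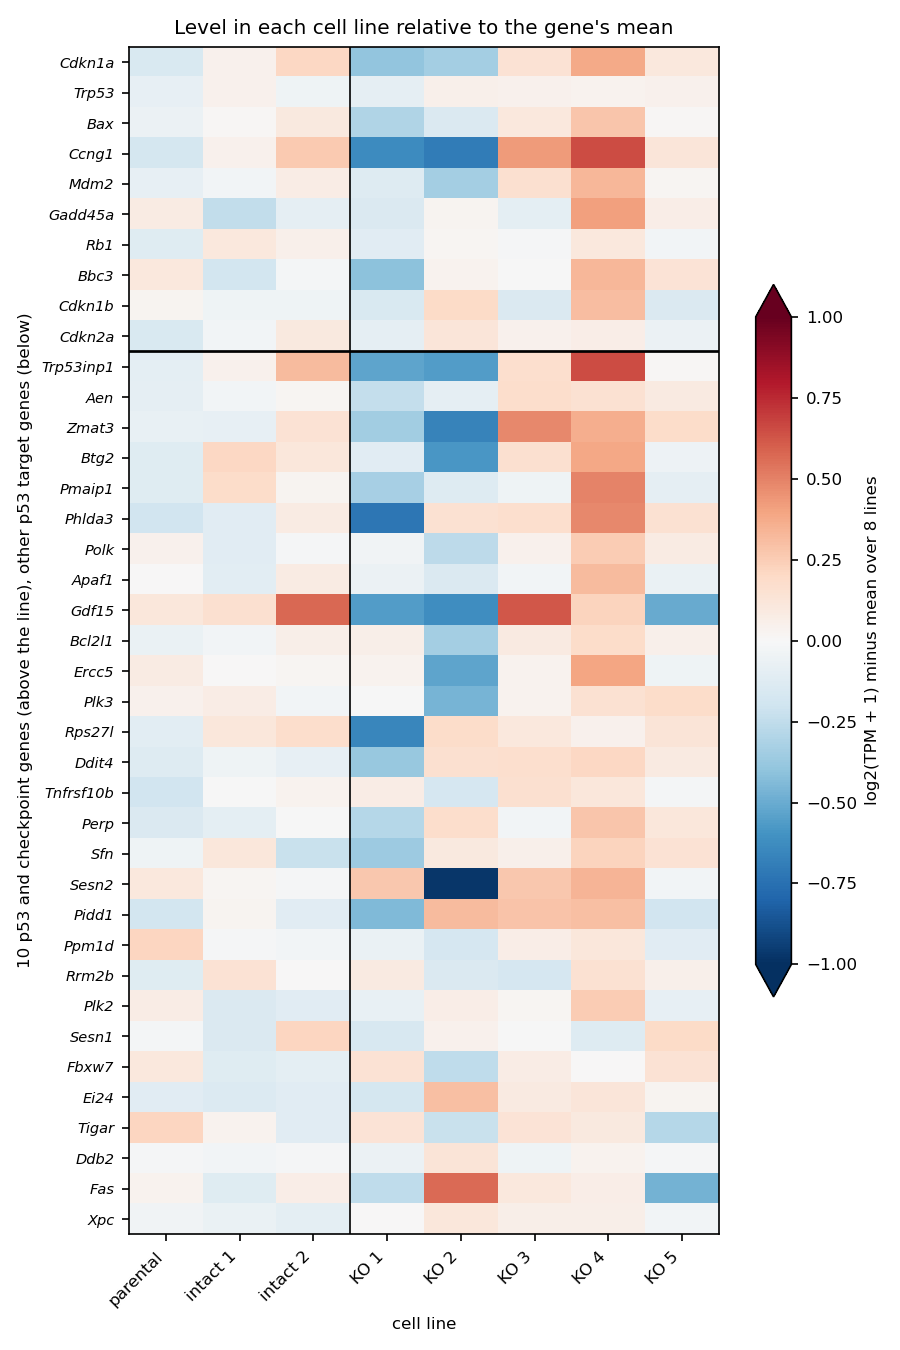
Level of the 10 genes (above the black line) and of 29 other p53 target genes (below it, ordered by their r with Cdkn1a) in the 8 cell lines, as log2(TPM + 1) minus the gene's mean over the lines; blue is below and red above the mean. Ccng1, Trp53inp1 and Zmat3 are blue in KO 1 and KO 2 and red in KO 3 and KO 4, while Trp53 is near white throughout.

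Other p53 target genes followed Cdkn1a in part. Of 30 such genes on the list, 29 were tested, 0 passed the adjusted limma test between KO and intact samples and 2 had an unadjusted p under 0.05, a share near the 6.99% of all genes: Ei24, an endoplasmic reticulum protein linked to apoptosis (131 ± 1.33 against 151 ± 18.2 TPM, adjusted p = 0.651), and Xpc, a DNA damage sensor (29.7 ± 1.10 against 32.3 ± 1.26 TPM, adjusted p = 0.672). The median log2 ratio of the list was 0.01. Their correlation with Cdkn1a over the lines had a median of 0.54, with 5 of 29 (17.2%) at 0.8 or more, beside a median of -0.08 and 1.61% over all genes. Among the 6 lines without KO 1 and KO 2, the median was 0.56 with 20.7% at 0.8 or more, beside 0.03 and 2.84%. Those 5 genes, named here after their values were seen, were Trp53inp1 (r = 0.98), the nuclease gene Aen (0.89), the RNA-binding Zmat3 (0.88), the antiproliferative Btg2 (0.82) and Pmaip1, which encodes the pro-apoptotic NOXA (0.80). Without KO 1 and KO 2, only Trp53inp1 (0.93) and Btg2 (0.81) of these stayed at 0.8 or more, Aen, Zmat3 and Pmaip1 were at 0.77, 0.71 and 0.73, and Phlda3, Tnfrsf10b, Perp and Bcl2l1 came in.

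Trp53inp1, a stress protein that promotes p53 activity, was 10.99 TPM in the parental line, 12.15 and 12.41 in intact clone 1, 16.63 and 13.48 in intact clone 2, and 7.93, 7.75, 13.42, 19.21 and 11.94 in KO 1 to KO 5. Zmat3 was lower in level but similar in order, with 2.38 and 1.71 TPM in KO 1 and KO 2, 3.88 to 4.99 TPM in the other KO clones and 2.94 to 3.78 TPM in intact samples. KO 1 and KO 2 were below the other 8 samples in 5 of the 29 genes tested (Trp53inp1, Zmat3, Aen, Pmaip1 and Gdf15), beside 3.51% of all genes, and KO 4 was the highest sample in 13 of 29, beside 11.9% of all genes. Not all targets shared this. Rps27l, the most abundant on the list, was low in KO 1 alone (330.51 TPM, against 483.88 to 602.63 TPM in the other 9 samples), and Sesn2 was low in KO 2 alone (22.35 TPM, against 42.35 to 57.27 TPM).

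**Figure D5:**
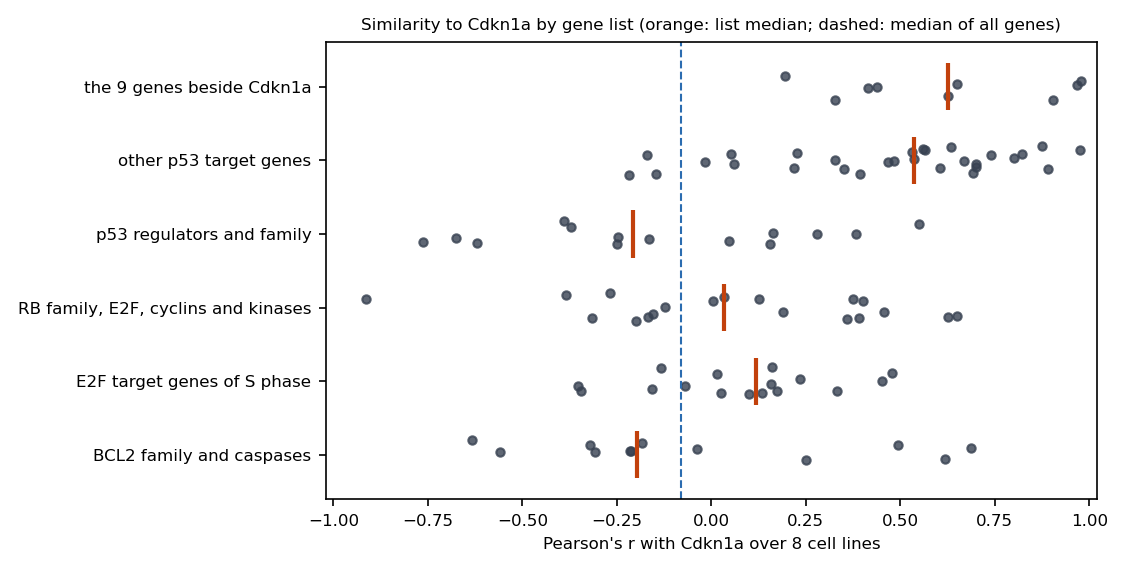
Pearson's r with Cdkn1a over 8 cell lines (horizontal axis) for each gene of 6 lists (rows). Points are genes, orange marks are list medians and the dashed line is the median of all genes with a mean of at least 1 TPM (-0.08). The genes beside Cdkn1a (median 0.62) and the other p53 targets (median 0.54) lie to the right, and p53 regulators (median -0.21) to the left.

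The kinases, ligases and cofactors that control p53 had lower correlations with Cdkn1a than its targets did, a difference that was not tested. Of 16 regulators and p53 family genes, 15 were tested and 0 passed the adjusted limma test, with 2 at an unadjusted p under 0.05 (6.99% of all genes were). These were Ppp1r13l, whose product iASPP inhibits p53 (16.3 ± 1.11 against 20.3 ± 2.82 TPM, adjusted p = 0.569), and the acetyltransferase gene Kat5 (75.3 ± 3.62 against 84.2 ± 6.42 TPM, adjusted p = 0.651). The most abundant were Usp7, Rchy1 and Kat5, with 92.3, 85.6 and 75.3 TPM in intact cells. Their median r with Cdkn1a was -0.21, and 0.21 without KO 1 and KO 2. The p53 relatives were nearly silent, with at most 0.41 TPM of Trp63 and 0.15 TPM of Trp73.

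Downstream of Rb1 and the kinase inhibitors, 19 of 20 RB family, E2F, cyclin and kinase genes were tested and 0 passed between KO and intact samples, with 1 under an unadjusted p of 0.05, beside 6.99% of all genes (E2f3, 5.90 ± 0.557 against 7.04 ± 0.496 TPM, limma adjusted p = 0.659). Cdk4, the G1 kinase that p16 inhibits, was the most abundant (1275.70 to 1337.50 TPM in intact and 1196.79 to 1567.20 TPM in KO samples). All 16 E2F target genes of S phase were tested and 0 passed the adjusted or the unadjusted threshold. Over the 8 lines, 3 of the 39 genes tested in these groups and among the other kinase inhibitors passed the moderated F test, beside 3.60% of all genes: E2f5 (adjusted p = 0.0478), the inhibitor Cdkn2d (adjusted p = 0.0464) and the S phase gene Tk1, thymidine kinase (adjusted p = 0.0401). In each KO 2 was at an extreme. Cdkn2d was 96.78 TPM in KO 2 and 46.48 to 63.65 TPM elsewhere, Tk1 was 191.80 TPM in KO 2 and 120.63 to 150.68 TPM elsewhere, and E2f5 was 25.08 TPM in KO 2 and 37.74 to 45.19 TPM elsewhere. The summed TPM of the S phase genes was 5490 in KO 2, 3840 in KO 1 and 4300 to 4690 in intact samples. KO 1 and KO 2 thus shared low Cdkn1a and Ccng1 but not the summed level of the S phase genes. Both libraries also stood apart over all genes, and the part of this in the sums was not tested. The median r of the S phase genes with Cdkn1a was 0.12 over 8 lines and 0.26 without KO 1 and KO 2.

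Among apoptosis genes, 12 of 13 BCL2 family and caspase genes were tested and 0 passed the adjusted limma test, with 2 (Bmf and Bik) at an unadjusted p under 0.05, beside 6.99% of all genes. Bik, a BH3-only gene, was 15.7 ± 5.73 TPM in intact and 9.43 ± 4.03 TPM in KO samples, which overlapped (log2 ratio -0.70, limma adjusted p = 0.683). The KO samples lay above all intact samples for 2 genes, Bmf and Bcl2, beside 1.64% of all genes without overlap in either direction. Bmf, a pro-apoptotic BH3-only gene, was 5.94 ± 0.921 TPM in intact and 9.10 ± 1.20 TPM in KO samples (SD, n = 5 each). The log2 difference was 0.54 ± 0.12 (SE; limma adjusted p = 0.447). Bcl2, which opposes apoptosis, was 5.59 ± 0.175 and 6.18 ± 0.296 TPM (log2 ratio 0.12, limma adjusted p = 0.766). Neither passed over all genes, and the BH3-only gene on the p53 list, Bbc3, did not share the separation. The relatives of Gadd45a and Ccng1 (Gadd45b, Gadd45g and Ccng2) also did not pass, 0 of 3 at either threshold. Their r with Cdkn1a went both ways, at -0.58 for Gadd45b, -0.64 for Ccng2 and 0.47 for Gadd45g. Without KO 1 and KO 2 it was -0.19, -0.14 and -0.41 in this order.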

How the data were processed

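RNA-seq was run on 10 samples. The authors aligned reads with STAR and quantified Ensembl genes with RSEM; the deposited unit is TPM, from amplified, unstranded full-length cDNA. Depth is unknown, and 0 columns were left unused. Samples were grouped by their labels. On log2(TPM + 1), with a pseudocount of 1, the 20000 most abundant genes were tested by limma 3.58.1 (R 4.3.3; intensity trend, Benjamini-Hochberg threshold 0.05): 5 KO against 5 intact samples, and in a second fit with 1 level per cell line. Single genes were tested over all 252 arrangements of the samples, with paired samples of an intact clone counted as independent. Relations were tested over 40320 orders of 8 lines, with adjustment over 45 pairs. On simulated data for KO against intact, limma recovered 180 of 200 genes changed by a log2 ratio of 1, with 11 false calls. For intact clone 2 against clone 1 it recovered 144 of 200, with 3 false calls. The simulated samples were independent, without shared cell lines, and the change was larger than any KO ratio of the 10 genes. The simulation therefore does not show how small a change could have been found in them. Python 3.11.15, pandas 2.3.3, numpy 2.4.6, scipy 1.17.1 and matplotlib 3.10.9 were used otherwise. Windows of 50 bases and gene overlaps came from GENCODE M21 (GRCm38), and promoters from RefSeq (GRCm38.p6). Rb1 had no promoter entry. The authors' annotation was a later one.

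The members and gene lists were chosen with earlier results of these data known. Named were the 10 genes, Camk2d and, per list, genes past a threshold and up to 3 per direction without overlap. The rule also held up to 3 most abundant genes per list, which were not named for every list. Outside this rule, and chosen once values were seen, were Xpc, Ppp1r13l, E2f3, Trp53inp1, Aen, Zmat3, Btg2, Pmaip1, Phlda3, Tnfrsf10b, Perp, Gdf15, Bik, Sesn2, Trp63 and Trp73. Ei24 and Kat5 fell under the rule by abundance but were described for their unadjusted p. Alternatives were other pseudocounts, filters, scalings and limma settings, 1 value per cell line, the line as a random effect (statmod 1.5.0) and leaving out each sample. Omitting KO 1 and KO 2 or KO 4, and rescaled relations, were added after seeing the data.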

Additional observations from a re-analysis of the deposited data

Results flagged for a closer look

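Of 22 groups of samples (11 genes in the 5 intact and the 5 KO samples), 1 had a sample far from the others. For Trp53 in the KO clones, KO 1 (228.59 TPM) lay below the other 4 (250.20 to 251.94 TPM), and its gap to the nearest was 0.925 of the group's range, above Dixon's critical value of 0.71. Chance flags about 1 in 20 such groups. KO 1 lay just below the lowest intact sample, the parental line at 230.55 TPM.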

How the results depend on the processing

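No alternative brought any of the 10 genes under an adjusted p of 0.05 between KO and intact samples. The log2 ratio changed sign for Mdm2 after rescaling by median ratios (-0.0227) and quantile normalization (-0.0140) and for Cdkn2a after rescaling by median ratios (-0.0019). It also did so without KO 1 and KO 2, for Cdkn1a (0.1416), Ccng1 (0.3114) and Bax (0.0950), and, with 1 value per cell line as well, for Cdkn1a (0.1790), Ccng1 (0.3558), Bax (0.1102) and Rb1 (0.0094). Leaving out 1 sample at a time gave ranges of -0.0762 to 0.0933 for Mdm2, -0.1897 to 0.0045 for Cdkn1a, -0.0327 to 0.0834 for Cdkn1b, -0.0247 to 0.0756 for Cdkn2a, -0.2830 to 0.0549 for Ccng1, -0.1191 to 0.0255 for Bax, -0.0006 to 0.1836 for Bbc3 and, with no change of sign, 0.0814 to 0.2312 for Gadd45a. The sign turned without KO 1 for Cdkn1a, Ccng1 and Bax, without KO 2 for Ccng1, Cdkn1b and Cdkn2a, without KO 3 for Mdm2 and without KO 4 for Mdm2, Cdkn1b and Bbc3. It also turned without the parental sample for Mdm2 and Cdkn2a, without clone 1 sample 1 for Cdkn2a, and without clone 1 sample 2 or clone 2 sample 2 for Mdm2. Between intact clones the ranges were -0.0022 to 0.1988 for Mdm2, -0.0598 to 0.0675 for Cdkn1b, -0.0373 to 0.2906 for Cdkn2a and -0.0459 to 0.3682 for Gadd45a.

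The count of genes called between KO and intact samples was 1 and became 2 with a pseudocount of 0.1 and without KO 1 and KO 2 at 1 value per cell line, and 1 to 2 without single samples. Between intact clones it was 5 and became 1 with a pseudocount of 0.1, 243 among genes with a mean of at least 1 TPM, 11 without the trend and 0 to 0 without single samples. Over the 8 lines it was 719 and became 452 without the trend and 0 to 0 without single samples, where 1 pair gives the residual spread. Among genes with a mean of at least 1 TPM, Cdkn1a (adjusted p = 0.0388) and Bax (0.0459) also passed the F test. Of the pairs of genes related over the lines, 5 became 0 with 6 lines. The causes were not tested. No paired analysis was possible because the numbers of the KO clones and of the intact samples name different cell lines. Depth is unknown, so what it limits cannot be stated.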
